A study of Mus musculus with 12 samples.

Results

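H3K9ac peaks of the reciprocal F1 hybrid livers were compared with those of B6 livers. The comparison used 4 of the 12 libraries of the series, namely F1 BM, F1 MB, B6 replicate 1 and B6 replicate 2, each with its own peak list. Peaks of the 4 lists that overlapped were merged into 25785 union regions. A region was called gained when both F1 lists and neither B6 list had a peak in it, and lost in the reverse case. Of the union regions, 312 (1.21%) were gained and 484 (1.88%) were lost, whereas 7558 regions had a peak in all 4 lists. All livers came from adult mice. B6 is the inbred strain C57BL/6J, which carries the reference genome sequence, and MSM (MSM/Ms) is an inbred strain of Japanese wild mouse origin. F1 BM and F1 MB came from reciprocal crosses of B6 and MSM, so every F1 cell carried a B6 and an MSM genome. If the names give the dam first, F1 BM had a B6 dam and an MSM sire, and F1 MB the opposite parents. Each cross was represented by 1 mouse, and the F1 pair are therefore not replicates of a cross. The 2 MSM H3K9ac lists took no part in choosing the regions and were read afterwards, and the 6 input libraries were not analysed here.

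Acetylation of histone H3 at lysine 9 is laid down by acetyltransferases such as GCN5 and PCAF and removed by histone deacetylases. The mark lies at the starts of transcribed genes, mostly just downstream of the start, and at active enhancers. In liver it covers the genes of hepatocyte metabolism, plasma protein secretion and xenobiotic clearance. In mammalian genomes CpG dinucleotides are rare except in CpG islands, which cover many promoters, and active CpG islands usually carry acetylated histones.

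Windows of 121 bases centred on the summit are shown for the leading gained and lost regions, so that the CpG counts given further on can be read in sequence. Their CpG counts overlap between gained and lost regions. Sequences are the plus strand of mm10 (GRCm38), 5′ to 3′, and capitals mark CpG dinucleotides. They are the reference sequence, which is that of B6, and windows over untranslated regions were not used. The leading gained regions at gene starts were in an intron of C6 (chr15:4727545-4727665, 0 CpG) and upstream of Dtnb (chr12:3571958-3572078, 9 CpG). The leading gained distal regions lay between genes, nearest to E2f7 (chr10:110726474-110726594, 6 CpG), and in an intron of Cabcoco1 (chr10:68439276-68439396, 2 CpG).
C6: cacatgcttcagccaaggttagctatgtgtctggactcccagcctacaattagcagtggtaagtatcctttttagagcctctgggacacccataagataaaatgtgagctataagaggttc
Dtnb: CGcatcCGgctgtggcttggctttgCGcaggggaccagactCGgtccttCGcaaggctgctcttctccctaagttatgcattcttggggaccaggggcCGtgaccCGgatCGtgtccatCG
E2f7: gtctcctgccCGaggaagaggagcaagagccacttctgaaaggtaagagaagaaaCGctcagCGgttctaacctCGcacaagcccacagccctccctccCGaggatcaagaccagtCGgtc
Cabcoco1: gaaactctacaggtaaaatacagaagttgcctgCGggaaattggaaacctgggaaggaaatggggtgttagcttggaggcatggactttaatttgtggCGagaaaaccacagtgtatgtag
The leading lost regions at gene starts that met the same condition were in an intron of Meaf6 (chr4:125085235-125085355, 12 CpG) and just upstream of Pwwp2b (chr7:139248184-139248304, 8 CpG). The leading lost distal regions were in introns of Cep85 (chr4:134159975-134160095, 12 CpG) and Bcl3 (chr7:19816761-19816881, 3 CpG).
Meaf6: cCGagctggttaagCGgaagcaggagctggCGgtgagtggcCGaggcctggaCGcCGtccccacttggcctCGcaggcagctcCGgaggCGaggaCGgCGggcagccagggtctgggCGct
Pwwp2b: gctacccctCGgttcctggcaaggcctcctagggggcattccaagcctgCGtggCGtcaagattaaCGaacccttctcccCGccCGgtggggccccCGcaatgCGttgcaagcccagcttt
Cep85: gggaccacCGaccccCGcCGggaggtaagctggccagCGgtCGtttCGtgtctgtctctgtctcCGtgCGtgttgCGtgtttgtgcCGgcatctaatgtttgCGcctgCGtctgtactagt
Bcl3: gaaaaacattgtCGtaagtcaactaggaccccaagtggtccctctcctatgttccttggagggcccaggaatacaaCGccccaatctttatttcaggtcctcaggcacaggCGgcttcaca

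The F1 lists did not hold more peaks, nor cover more sequence, than the B6 lists beyond the spread within a genotype. The hybrid lists held 20173 peaks (F1 BM) and 13235 peaks (F1 MB), and those of B6 held 22968 (replicate 1) and 11619 (replicate 2). Each genotype thus had a long list and a short list, and the ranges overlapped. The mean difference, F1 minus B6, was -589.5 peaks with a pooled within-genotype SD of 6651 (two-sided exact permutation p = 1, n = 2 and 2). Peaks of F1 BM covered 12.3 Mb and peaks of F1 MB 7.46 Mb, against 16.02 Mb and 6.28 Mb for B6 replicates 1 and 2, a difference of -1.29 Mb with an SD of 5.43 Mb (exact permutation p = 1). Distal peaks, those with no protein-coding gene start within 1 kb, covered 5.66 and 2.69 Mb in F1 BM and F1 MB, and 6.25 and 2.24 Mb in B6 replicates 1 and 2. Their difference was -0.0702 Mb (SD 2.49, exact permutation p = 1). The share of peaks at a gene start was lowest in F1 BM (49.0%) and was 53.9% in B6 replicate 1, 61.3% in F1 MB and 61.8% in B6 replicate 2 (exact permutation p = 0.667). The smallest p that 2 lists against 2 allow is 0.333, so none of these tests could have passed 0.05. By the sequencing statistics of the study, both F1 libraries were sequenced more deeply than either B6 library. In base composition F1 BM stood apart from the other 3 lists, as given with the CpG counts. The lists hold no read counts, so absence of a peak and a signal too weak for the depth of its library cannot be told apart.

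**Figure D1:**
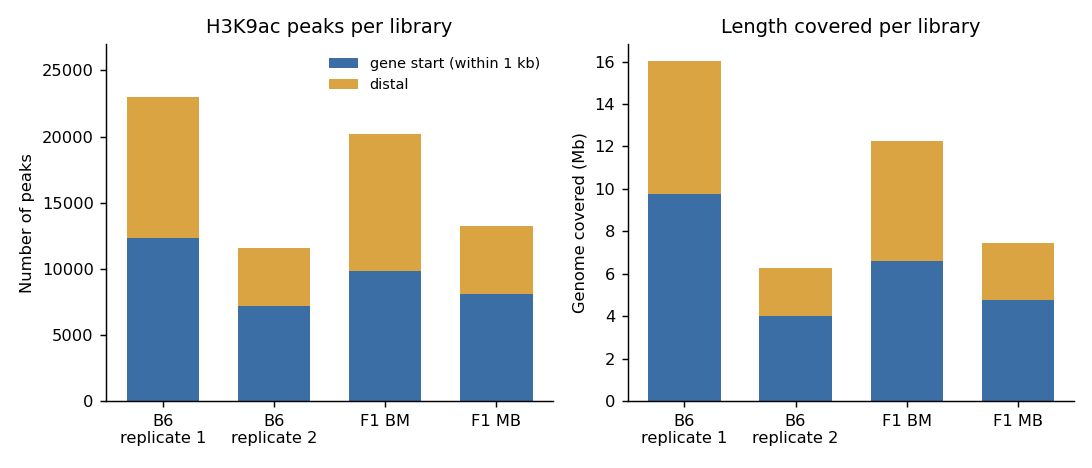
Number of H3K9ac peaks (left) and length of genome covered in Mb (right) in each of the 4 libraries, split into peaks within 1 kb of a protein-coding gene start (blue) and distal peaks (yellow). Each bar is 1 library, and each genotype has a long list and a short list.

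Gained and lost regions were set against the counts given by the other 2 pairings of the same 4 lists. F1 against B6 gave 312 and 484 regions, 796 in all. Pairing the long lists, B6 replicate 1 with F1 BM, against the short lists gave 3464 regions in the long lists only and 3 in the short lists only. The remaining pairing, B6 replicate 1 with F1 MB against B6 replicate 2 with F1 BM, gave 699 and 54 regions, 753 in all. With the lists as deposited, the F1 and B6 pairing separated about as many regions as this last pairing, called the mixed pairing below. It separated far fewer than the pairing by list length. When each list was limited to the 11619 peaks of highest −log10 q-value, the length of the shortest list, F1 against B6 gave 615 and 652 regions, 1267 in all. The pairing by list length then gave 613 and the mixed pairing 925, so that F1 against B6 separated the most regions under this setting. When each list was limited to the same covered length, F1 against B6 gave 404 and 221 regions, 625 in all, against 1408 for the pairing by list length and 386 for the mixed pairing. Each list weighed on these counts, and with a list left out the gained regions numbered 2932 (without B6 replicate 1), 3233 (without F1 MB) and 522 (without F1 BM), and the lost regions 6744 (without B6 replicate 2) and 1770 (without F1 BM). Covered sequence was not shared more within a genotype than between genotypes. The Jaccard index, the bases covered by both lists divided by those covered by either, was 0.496 for the F1 lists and 0.381 for the B6 lists, and the 4 values between F1 and B6 lists ranged from 0.430 to 0.548. The mean within minus between genotypes was -0.0463, against 0.103 for the pairing by list length and -0.0562 for the mixed pairing. It was -0.00486 with lists of the same number of peaks, which kept its sign, and 0.00455 with the same covered length, which turned it. Leaving out B6 replicate 1 (0.0155) or B6 replicate 2 (0.00671) turned the sign as well, and the cause was not tested.

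**Figure D2:**
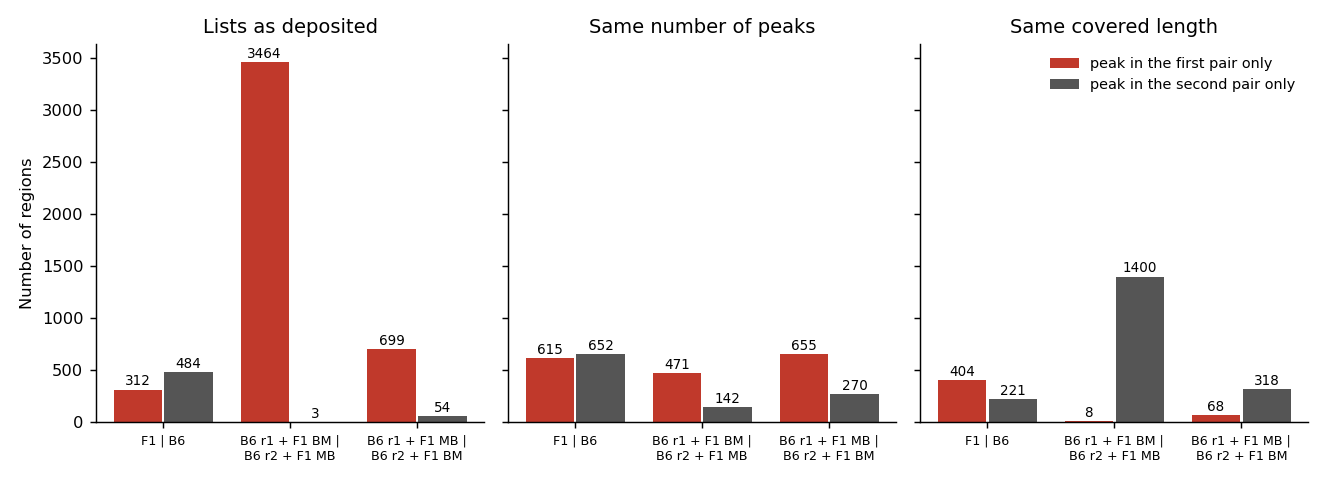
Number of regions with a peak in both lists of a pair and in neither list of the other pair, for the 3 pairings of the 4 libraries, with the lists as deposited, limited to the same number of peaks and limited to the same covered length. Red bars count regions of the pair named first and grey bars those of the pair named second (r1 and r2 are replicates 1 and 2); the F1 and B6 pairing gave 312 and 484 regions as deposited.

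The gained regions were mostly distal. Only 37 gained regions lay at a gene start, 0.292% of the 12683 union regions there, and 275 were distal, 2.1% of the 13102 distal union regions. Lost regions were divided more evenly, with 266 at a gene start (2.1%) and 218 distal (1.66%). The share at a gene start was 11.9% for gained regions (95% Wilson interval 8.73 to 15.9) and 55.0% for lost regions (50.5 to 59.3), against 49.2% of all union regions. These intervals cover counting error only, since regions of 1 library are not independent samples. Gained regions covered 177 kb with a median length of 494 bp, and lost regions covered 284 kb with a median of 510.5 bp. Regions with a peak in all 4 lists were longer, with a median of 1042 bp, and 70.1% of them lay at a gene start. The mixed pairing was split as well. Of its 699 regions in B6 replicate 1 and F1 MB only, 76.7% lay at a gene start. Of its 54 regions in B6 replicate 2 and F1 BM only, 18.5% did. In the pairing by list length, 35.8% of the 3464 regions of the long lists lay at a gene start. With the F1 BM list left out, 17.6% of 522 gained regions lay at a gene start. Without B6 replicate 1, the share was 48.5% of 2932 gained regions.

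At gene starts, the gained regions that came first in order lay at C6, Dtnb and Ces2h. Fold here is the fold enrichment of the highest peak in the region, as written by the peak caller. Regions were ordered by the lower of the folds in the lists that held them. C6 encodes a terminal complement component of the membrane attack complex. Its region (chr15:4727230-4728654) begins 55 bp from the start and had a fold of 6.91 in F1 BM and 6.02 in F1 MB, with no peak in either B6 list. Both MSM lists also had a peak there, of 8.47 and 6.53. Ces2h, a carboxylesterase of a family of near-identical copies, had a peak over its start (chr8:105000837-105001331) with folds of 6.19 in F1 BM, 4.55 in F1 MB, and 13.8 and 9.38 in the MSM lists. Because reads can be divided among its copies, the value at Ces2h is uncertain. Slc10a2, the apical sodium-dependent bile acid transporter, had a peak in a coding exon at its start (chr8:5104693-5105321) with folds of 4.98 and 3.97 in F1 and 8.58 and 6.93 in MSM. At C6, Ces2h and Slc10a2 the highest of the folds was that of MSM replicate 1. A fold is taken over the background of its own library, so folds of different libraries are set side by side here without a test.

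Upstream of Dtnb, which encodes the dystrophin-associated protein beta-dystrobrevin, a gained region (chr12:3571800-3572265) had folds of 5.22 in F1 BM, 7.59 in F1 MB, and 10.4 and 8.25 in MSM. Dtnb itself was not a gained gene, because another peak lay within 1 kb of its start in a B6 list. Nos3, the endothelial nitric oxide synthase, had a peak in each F1 list (chr5:24364896-24365626) with folds of 3.88 and 3.91, and in both MSM lists with 4.51 and 4.46. Hgf, the hepatocyte growth factor, which in liver is made mainly by non-parenchymal cells, had a peak of 3.88 in F1 BM and 3.69 in F1 MB (chr5:16553909-16554376) and none in any B6 or MSM list. The other leading gained regions lay at Chst15, Zfp768, Setdb2 with Cab39l, Mmd2, Acer2, Tspan12, Vwa3b, Spg11 and Adam23. Of the 15 leading gained regions at gene starts, 8 had a peak in both MSM lists, 3 in 1 MSM list and 4 in neither. With the lists limited to the same number of peaks 9 of the 15 were still gained, and with the same covered length C6, Dtnb, Ces2h and Zfp768 were. Of all 37 gained regions at gene starts, 11 were still gained with the same number of peaks and 4 with the same covered length. Over all 37 regions the fold ran from 1.85 to 6.91 in F1 BM (median 3.40) and from 2.89 to 7.59 in F1 MB (median 3.81).

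**Figure D3:**
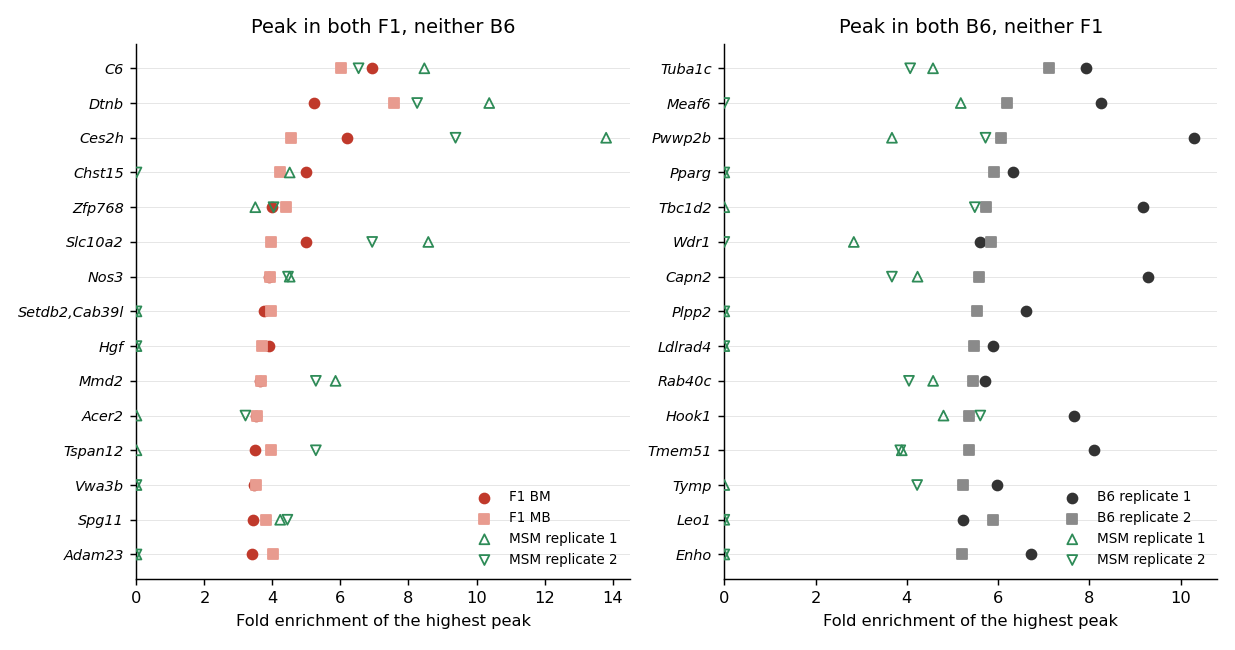
Fold enrichment of the highest peak in the 15 leading gained regions (left) and the 15 leading lost regions (right) at gene starts, ordered from the top by the lower fold of the pair of lists that held them. Filled symbols are the F1 or B6 libraries and open triangles the MSM libraries, a triangle at 0 means that the list had no peak, and the gained regions C6, Dtnb and Ces2h show MSM peaks at or above the F1 level in at least 1 MSM library.

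The leading distal gained region (chr10:110726142-110727483) lay 17956 bp from the start of E2f7, a transcriptional repressor of cell cycle genes, with folds of 9.54 in F1 BM and 7.81 in F1 MB. In MSM its folds were 19.5 and 12.6. A region in Cabcoco1 (chr10:68439136-68439842) had folds of 7.37 and 7.01 in F1 and 5.78 and 8.49 in MSM. Regions nearest to Il12rb1 (chr8:70822971-70823984), Serpina5 (chr12:104077941-104079506), Rasgef1b (chr5:99417222-99417812) and Ythdf3 (chr3:16117972-16118356) followed, with F1 folds between 5.62 and 8.04. All 6 had a peak in both MSM lists, and all 6 were still gained with lists of the same number of peaks and of the same covered length. Of all 275 distal gained regions, 121 were still gained with the same number of peaks and 37 with the same covered length. The nearest start is given for position only and does not link a region to a gene. Among all 275 distal gained regions, 157 summits lay in introns and 90 between genes, and the median distance to the nearest gene start was 20018 bp.

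Gained regions also formed groups along the chromosome. There were 11 places where 3 or more gained regions followed each other at gaps of at most 50 kb, against 1 such place for lost regions. Groups were not counted for the other pairings or for all union regions. Gained regions were also more often distal than lost regions, so these numbers are given as counts only. Groups of 4 regions lay at Ttc39c, at Fmo5, a flavin-containing monooxygenase, and at Pptc7, a mitochondrial phosphatase. Groups of 3 included those at Cabcoco1, Cab39l, Gm826, Acer2, Mfsd2a and Blm, and near Il12rb1. At Cab39l (chr14:59441842-59445553), F1 folds were 3.76 and 3.97, 2.998 and 4.46, and 3.48 and 5.64 in the successive regions, and neither MSM list had a peak in any of them. At Pptc7 (chr5:122292245-122303875), by contrast, both MSM lists had a peak in each of the 4 regions. The lost group lay on chromosome 18 over Grpel2, Il17b and Pcyox1l. A group counts adjacent pieces of a domain separately, and joining peaks up to 500 bp apart reduced the gained regions from 312 to 198 and the lost regions from 484 to 299.

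At gene starts, the lost regions that came first in the same order lay at Tuba1c, Meaf6 and Pwwp2b. The leading region lay at Tuba1c (chr15:99029503-99030140), an alpha-tubulin gene with near-identical relatives, with folds of 7.93 and 7.13 in B6, no peak in F1, and 4.57 and 4.07 in MSM. Tuba1c was not a lost gene, since another peak lay in its start window in an F1 list. Meaf6, a subunit of the NuA4 acetyltransferase complex, had a peak of 8.25 and 6.20 in B6 (chr4:125085131-125085417), none in F1, and 5.18 in MSM replicate 1 only. Pwwp2b, a chromatin reader, had B6 folds of 10.3 and 6.07 (chr7:139247573-139248406) and MSM folds of 3.67 and 5.72. At all 3 regions B6 replicate 1 had the highest fold of the lists.

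Pparg, the nuclear receptor that drives fat storage, had a peak at its start (chr6:115361076-115361744) of 6.32 in B6 replicate 1 and 5.92 in B6 replicate 2. Neither F1 list nor MSM list had a peak there. Enho encodes adropin, a peptide secreted by liver, and its peak (chr4:41639575-41640053) had folds of 6.72 and 5.21 in B6 and was likewise missing from the F1 and MSM lists. Plpp2, a lipid phosphate phosphatase, had folds of 6.62 and 5.53 in B6 (chr10:79533357-79533759) and no peak in F1 or MSM. Capn2, the large subunit of m-calpain, had folds of 9.27 and 5.58 in B6 and of 4.23 and 3.67 in MSM, but no peak in F1 (chr1:182516803-182517504). Tbc1d2, Wdr1, Ldlrad4, Rab40c, Hook1, Tmem51, Tymp and Leo1 completed the leading 15, of which 6 had a peak in both MSM lists, 4 in 1 and 5 in neither. With lists of the same number of peaks 14 of the 15 were still lost, and with the same covered length Tuba1c and Capn2 were. Of all 266 lost regions at gene starts, 146 were still lost with the same number of peaks and 16 with the same covered length. Over all 266 regions the fold ran from 2.44 to 12.5 in B6 replicate 1 (median 5.30) and from 2.41 to 7.13 in B6 replicate 2 (median 3.99).

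The leading distal lost regions were mostly missing from MSM as well. A region in an intron of Cep85 (chr4:134159551-134161214), a centrosomal protein gene, had folds of 7.49 in B6 replicate 1 and 8.77 in B6 replicate 2, and no peak in any F1 or MSM list. A region in Bcl3 (chr7:19816596-19817834), which encodes a nuclear IκB protein, had folds of 10.5 and 7.32 in B6 and of 3.09 and 5.01 in MSM. Regions nearest to Tsga10ip (chr19:5406158-5406578), Pls3 (chrX:75745348-75745648), Fzd8 and Hsp90aa1 (chr12:110696582-110697058) had B6 folds between 5.69 and 7.89 and no MSM peak. Bcl3 was the only one of the 6 with a peak in both MSM lists. All 6 were still lost with lists of the same number of peaks, and 3 with the same covered length, namely those in Cep85 and Bcl3 and near Tsga10ip. Of all 218 distal lost regions, 85 were still lost with the same number of peaks and 8 with the same covered length.

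The MSM lists, which the rule did not use, were then read in the gained and lost regions. Both MSM lists had a peak in 177 of 312 gained regions (56.7%, 95% Wilson interval 51.2 to 62.1) and neither had one in 73 (23.4%). Of 484 lost regions, both MSM lists had a peak in 90 (18.6%) and neither in 282 (58.3%, interval 53.8 to 62.6). Over all union regions the shares were 45.8% and 37.1%, and over regions of all 4 lists they were 92.1% and 2.83%. Among distal regions both MSM lists had a peak in 58.2% of gained and 11.5% of lost regions, against 32.7% of all union regions there. At gene starts both MSM lists had a peak in 45.9% of 37 gained and 24.4% of 266 lost regions, against 59.3% of all union regions there. The share of union regions takes in those found in a single list, which are shorter (median 312 bp) than gained regions. In the 160 distal gained regions with a peak in both MSM lists, the median fold was 3.63 in F1 BM, 3.79 in F1 MB, and 4.64 and 5.12 in the MSM lists. These shares depended on single lists. The share of gained regions with both MSM peaks was 18.4% without F1 MB and 43.5% without F1 BM, and the share of lost regions with neither was 34.5% without F1 BM. Limiting all 6 H3K9ac lists to the same number of peaks lowered the share of gained regions with both MSM peaks to 40.3%.

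**Figure D4:**
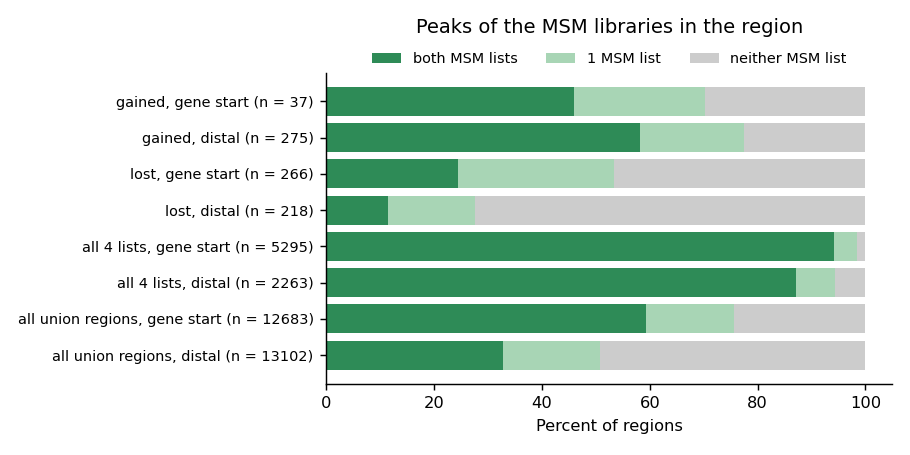
Percent of gained, lost, shared (all 4 lists) and all union regions, at gene starts and distal, with a peak in both MSM libraries, in 1 or in neither. Both MSM libraries had a peak in 58.2% of distal gained regions and 11.5% of distal lost regions, and n is the number of regions in each bar.

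With all 4 lists, the sequence around the summit held fewer CpG dinucleotides in gained than in lost regions, but at gene starts this order depended on B6 replicate 1. Without that list the median at gene starts was 20 CpG in gained and 16 in lost regions, and in distal sequence 4 and 6. In 300 bp around the summit of the highest peak, distal gained regions had a median of 3 CpG (quartiles 2 and 5) and a GC content of 45.7%, and distal lost regions had 7 CpG (3 and 15) and 53.3%. All distal union regions had a median of 4 CpG. At gene starts the medians were 6 CpG in gained regions, 18 in lost regions, 18 in all union regions and 20 in regions of all 4 lists. At least 10 CpG were found in 4% of distal gained regions and 39.0% of distal lost regions, against 18.01% of all distal union regions. At gene starts 32.4% of gained and 78.6% of lost regions had at least 10 CpG, against 75.8% of union regions there. The GC box GGGCGG, read on both strands in the same 300 bp, occurred in 10.8% of gained and 37.6% of lost regions at gene starts, against 38.8% of union regions there. In distal regions it occurred in 3.64% of gained, 15.6% of lost and 11.2% of all. The CCAAT box core ATTGG, which holds no CpG, occurred in 31.6% of gained, 28.9% of lost and 28.6% of all distal regions, and at gene starts in 35.1% of gained, 25.9% of lost and 21.3% of all.

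The F1 BM list stood apart from the other 3 lists in base composition. Its peaks had a median GC content of 51%, and 42.0% had at least 10 CpG, against 51.6% and 54.9% in the B6 lists and 58.1% in F1 MB. In the 7558 regions of all 4 lists, fold was turned into a percentile rank within each list. Regions with at least 10 CpG had a median rank of 42.6 in F1 BM and those with fewer had 63.7, whereas in the other lists the order was reversed, with 53.2 to 55.1 for the CpG-rich and 37.7 to 43.0 for the CpG-poor regions. In the mixed pairing the median was 27 CpG in the 699 regions of B6 replicate 1 and F1 MB. It was 3 in the 54 regions of B6 replicate 2 and F1 BM. With the F1 BM list left out, the gained regions had a median of 3 CpG in distal sequence and 11.5 at gene starts, and the lost regions 5 and 14. The medians were 3 and 6 in gained and 5 and 17 in lost regions without B6 replicate 2, and 3 and 5 in gained and 8 and 21 in lost regions without F1 MB. The order in distal sequence was therefore kept with each list left out, and that at gene starts was reversed without B6 replicate 1. The part of the F1 BM library in the CpG contrast was not tested further.

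**Figure D5:**
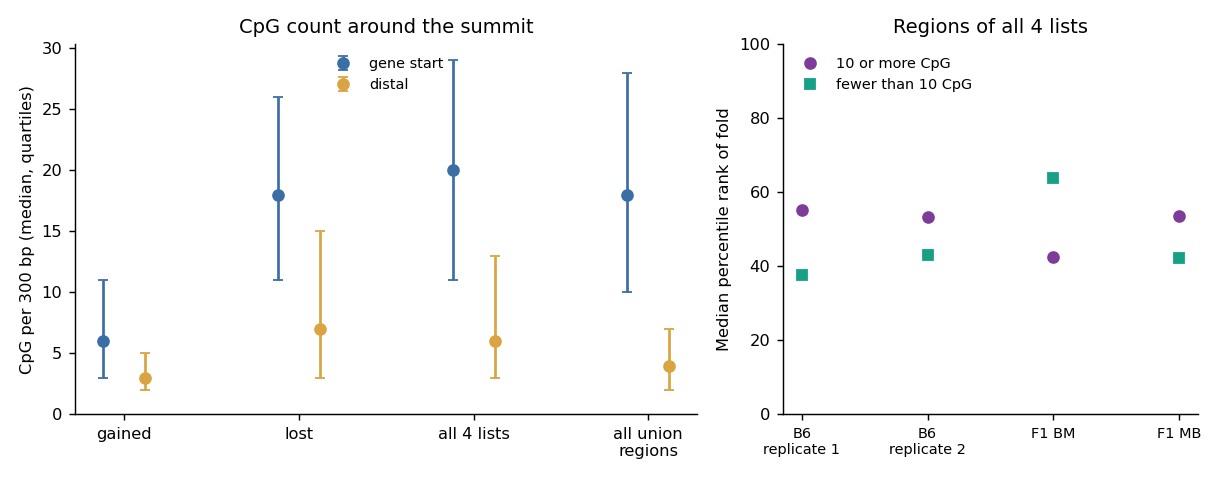
Left, number of CpG dinucleotides in 300 bp around the summit (median with quartiles) for gained, lost, shared and all union regions at gene starts (blue) and distal (yellow). Right, median percentile rank of fold within each library for shared regions with at least 10 CpG (purple circles) and fewer (green squares); F1 BM alone ranks the CpG-poor regions higher (63.7 against 42.6).

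Counted by gene, 17 of 21911 protein-coding genes (0.0776%) had a peak within 1 kb of the start in both F1 lists and neither B6 list. In the reverse direction there were 169 genes (0.771%). Of the 9848 genes with a peak in any of the 4 lists, these are 0.173% and 1.72%. Of the 21911 genes, 5388 had a peak in all 4 lists (24.6%). The mixed pairing gave 371 and 3 genes, and the pairing by list length 770 and 0. Gained genes beyond the leading regions included Hao2, a peroxisomal hydroxyacid oxidase, with folds of 3.97 in F1 BM and 3.37 in F1 MB. They also included F2r, the thrombin receptor, with 3.12 and 4.11, and Tlr6, a Toll-like receptor, with 3.11 and 3.13. Both MSM lists had a peak at Hao2, F2r and Tlr6, as at 12 of the 17 gained genes (70.6%), a share near the 72.2% of all genes with a peak in any of the 4 lists. The remaining gained genes were Plscr4, Gm14226, Gm379, Zc4h2, Zfp879 and Prelid2. Of the 169 lost genes, 49 had a peak in both MSM lists (28.99%), 51 in 1 and 69 in neither (40.8%), against 72.2% and 14.8% of genes with a peak in any of the 4 lists. With lists of the same number of peaks the counts were 91 gained and 315 lost genes, so that the number of gained genes depends on list length. It depends on single lists as well, with 1027 gained genes without B6 replicate 1, 138 without F1 MB and 29 without F1 BM, and 1593 lost genes without B6 replicate 2, 588 without F1 BM and 306 without F1 MB.

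Genes with sex-biased expression in liver were found among both the gained and the lost genes. Of 25 genes known to be higher in female liver, 22 had a peak in B6 replicate 1, 14 in B6 replicate 2, 18 in F1 BM, 11 in F1 MB, and 11 and 10 in the MSM lists. Among them 3 were lost and 1 (Hao2) was gained, beside 1.72% lost and 0.173% gained of all genes with a peak in any of the 4 lists. Cyp2b13, a female-specific cytochrome P450 gene with near-identical neighbours, had folds of 12.4 and 4.92 in B6 and no peak in F1 or MSM. Sult2a1 and Sult2a2, hydroxysteroid sulfotransferase genes of a family of close copies, had B6 folds of 5.31 and 3.59, and of 3.32 and 3.28, and no peak in F1 or MSM. Reads of such copies may be placed at the wrong member, so these 3 values are uncertain. Both B6 lists had a peak at 14 genes of the list, and F1 MB had none at 7 of them, Cyp2b9, Cyp2b13, Cyp2b10, Sult2a1, Sult2a2, Abcd2 and Cyp17a1. Neither MSM list had a peak at any of these 7, which were singled out after their values were seen. F1 BM had a peak at Cyp2b9 (6.71), Cyp2b10 (2.84), Abcd2 (3.37) and Cyp17a1 (4.20). Over all protein-coding genes, 588 had a peak in both B6 lists and none in F1 MB. Of the 1770 union regions with that pattern, 34.5% had no peak in either MSM list. The share of such genes among all genes with a peak in both B6 lists was not computed, so nothing is concluded from the 7 of 14.

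Of 20 genes higher in male liver, 8 had a peak in each B6 list, 11 in F1 BM and 8 in F1 MB, with C6 gained and Gstp1, a glutathione S-transferase, lost, beside the same 0.173% and 1.72% of all genes with a peak. Gstp1 had folds of 5.23 and 3.40 in B6, none in F1 and 3.17 in MSM replicate 2 only. The labels used here do not give the sex of the mice. All 6 H3K9ac lists had a peak at the start of Xist, with folds of 8.74 and 4.20 in B6 and 6.72 and 5.98 in F1, and none at the starts of the Y-linked genes Ddx3y, Eif2s3y, Kdm5d and Uty. Xist is transcribed from the inactive X chromosome of females.

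The counts in the other pathways stand beside 0.173% gained and 1.72% lost among all genes with a peak in any of the 4 lists. Of 42 xenobiotic metabolism genes, Ces2h was gained and Cyp2b13 was lost, both described above. Among 29 interferon response and antigen presentation genes, 3 were lost and 0 gained, the lost ones at 2 starts. Ifit3, an interferon-induced gene, had folds of 6.94 and 2.91 in B6 and no peak in F1 or MSM. Tap1 and Psmb9, a peptide transporter and an immunoproteasome subunit, share 1 divergent start and 1 peak, with folds of 6.23 and 4.47 in B6, none in F1, and 4.06 and 5.08 in MSM. Of 20 cholesterol synthesis genes, Cyp51, the lanosterol demethylase, was lost, with folds of 7.99 and 4.47 in B6 and of 6.38 and 8.46 in MSM. Peaks at starts of this list numbered 17 and 12 in B6, 14 and 11 in F1 BM and F1 MB, and 19 in each MSM list. Vnn1, a pantetheinase, was lost from 25 fatty acid oxidation and PPARA target genes, with folds of 7.76 and 3.91 in B6 only. Gadd45a was lost from 25 immediate early and stress genes, with B6 folds of 9.08 and 3.28 and MSM folds of 4.77 and 4.03. No gene was gained or lost among 21 circadian, 25 acute phase, 18 fatty acid synthesis, 21 major urinary protein, 20 hepatocyte transcription factor or 25 imprinted genes. All 18 genes of bile acid synthesis and transport and all 15 hepatocyte markers had a peak in all 4 lists.

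Endothelial markers had peaks in the long list of each genotype and in neither short list. Of 13 endothelial markers, 10 had a peak in F1 BM and 8 in B6 replicate 1, with summed folds of 37.6 and 41.0, and 0 had one in F1 MB or B6 replicate 2. Pecam1, Erg and Gata2 had no peak in any of the 4 lists. Of 13 stellate cell and fibroblast markers, 3 had a peak in F1 BM (summed fold 10.04), namely Dcn, Ecm1 and Hand2, and 0 had one in the other 3 lists. The stellate markers Lrat, Des and Pdgfrb had no peak in any of the 4 lists. Of 13 Kupffer cell and macrophage markers, 3 had a peak in B6 replicate 1 (summed fold 12.7) and 0 in the other 3, and Adgre1 and Clec4f had none. Cholangiocyte markers had a peak at 1 or 2 of 10 starts in each list, lymphocyte markers at 1 of 18 in B6 replicate 1 and 0 in the others, and blood and erythroid markers at 2 of 11 in every list. The gained genes Nos3 and Hgf, which are not in these marker lists, had a peak in F1 MB, where no listed endothelial or stellate marker had one. The cell content of the livers was not tested. In bulk tissue, fewer cells with the mark and less of the mark per cell cannot be told apart.

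Within the 7558 regions of all 4 lists, a region was taken as higher in F1 when its percentile rank of fold in both F1 lists exceeded that in both B6 lists by at least 20 points. There were 345 such regions (4.56%), and 313 (4.14%) were lower in F1 by the same measure. The pairing by list length gave 432 in all and the mixed pairing 569, against 658 for F1 and B6. The regions higher in F1 were 164 at a gene start and 181 distal, and those lower in F1 were 242 and 71, where the 7558 shared regions were 5295 and 2263. The median rank of distal regions was above that of regions at gene starts in F1 BM (56.9 and 47.03) and below it in the other 3 lists (38.2 to 42.9, against 52.9 to 54.4), and the part of F1 BM in this split was not tested. Across these regions Spearman's rho of fold was 0.497 between the F1 lists and 0.535 between the B6 lists, and from 0.442 to 0.537 between F1 and B6 lists. Regions are not independent replicates, and no p-value is given.

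Slco1a1, an organic anion transporter of the hepatocyte membrane, had the largest gap in rank among shared regions at gene starts (chr6:141944336-141947378). Its rank was 97.5 in F1 BM and 86.2 in F1 MB, against 13.6 and 19.7 in B6, and its folds were 9.598 and 7.995 against 5.47 and 3.82. Esr1, the estrogen receptor alpha gene, ranked at 89.02 and 89.7 in F1 and at 28.1 and 13.7 in B6 (chr10:4611406-4612961). Cfhr2, Zbtb20, Setdb2 with Cab39l, and Mug2 followed with gaps of 55.8 to 57.8 points, where Cfhr2 and Mug2 belong to families of close copies and are uncertain. The Setdb2 and Cab39l region adjoined the gained group in Cab39l described above. In the other direction, and again among regions at gene starts, the shared start of Ccdc71 and Klhdc8b ranked at 1.19 and 1.82 in F1 and at 84.5 and 75.1 in B6 (chr9:108460514-108461188). A region at Dock5, a Rac guanine nucleotide exchange factor, ranked at 0.701 and 24.3 in F1 and at 99.7 and 95.8 in B6 (chr14:67932669-67933530). The starts of Mbd5 with Orc4, of Slc2a1 (the glucose transporter GLUT1) and of Bach2 had gaps of 62.3 to 70.2 points. The groups did not overlap in any of these regions, as the rule requires.

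Few shared regions met the rule for a difference in length between the genotypes. In 18 shared regions (0.238%) both F1 lists covered at least 500 bp more than both B6 lists, and in 7 (0.0926%) at least 500 bp less. The mixed pairing gave 15 regions in all, and the pairing by list length 602. Over the shared regions the median covered length was 973.5 and 548.5 bp in B6 replicates 1 and 2. It was 808 bp in F1 BM and 608 bp in F1 MB, between the B6 values. With that spread the rule could call few regions, so the low counts do not show that lengths seldom differ. Of the 18 longer regions 9 lay at a gene start and 9 were distal, and of the 7 shorter regions 4 and 3, and those named here are at gene starts. Among these Zfp949 had the largest gain (chr9:88548068-88551610), with 3543 bp covered in F1 BM and 3014 bp in F1 MB, against 769 bp and 266 bp in B6. Agpat3, an acyltransferase of phospholipid synthesis, had 2484 and 2612 bp in F1 and 1481 and 435 bp in B6. C9, which like C6 encodes a terminal complement component, had 2273 and 1743 bp in F1 and 1069 and 335 bp in B6 (chr15:6445352-6447637). Slco1a1 was longer as well, with 3043 and 2196 bp against 1531 and 309 bp, as were Atp1b1 and Sds. Klf10, a transforming growth factor beta-inducible repressor, had the largest loss at a gene start, with 276 and 232 bp in F1 and 2669 and 1096 bp in B6 (chr15:38299507-38302226). Ccnd1, the cyclin D1 gene, had 509 and 707 bp in F1 and 2093 and 1398 bp in B6 (chr7:144937709-144939801). Abhd11 and Sqor were the other gene starts shorter by at least 500 bp, whereas Samd4 and Fam20c, next in order among gene starts, missed that limit with gaps of 464 and 459 bp.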

How the data were processed

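The authors fixed adult liver with formaldehyde, precipitated chromatin with an anti-H3K9ac antibody and sequenced paired reads. The methods name Trim Galore and Bowtie 2 for mapping to mm10 (GRCm38), whereas the submitters' processing notes name HISAT2, SAMtools, Trim Galore and MACS2. The peak threshold and the use of input as control are not given in the sources used here. Reads were mapped to the B6 sequence, so reads of the MSM genome in F1 can be lost where it differs.

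The deposited narrowPeak lists were called separately for each library. For each peak the authors' peak caller made a fold enrichment (a ratio of summit signal over background), a −log10 p-value and a −log10 q-value, as deposited. The authors' score, made from the −log10 q-value, was deposited too and was not used. The lowest deposited −log10 q-value was 1.30 to 1.35, near a q-value of 0.05. No column of another sample was present (0 columns left unused).

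Regions were merged and compared at an overlap of at least 1 bp with Python 3.11.15, numpy 2.4.6, scipy 1.17.1 and pysam 0.24.0, and drawn with matplotlib 3.10.9. A gene had 1 start, that of its longest model in GENCODE M21 (GRCm38), and the window was 1 kb either side. Groups followed the sample titles. List totals were compared by exact permutation (two-sided, 6 assignments), and shares have 95% Wilson intervals for counting error. The B6 lists came from separate mice and each F1 list from 1 mouse, and p-values measure only the spread between these lists. Named were the 15 leading gained and lost regions at gene starts, the 6 leading distal ones, the 6 largest rank and length differences in each direction among shared regions at gene starts, and each gained or lost member of the gene lists. Some items that this rule selects are not reported here. The members, gene lists and comparisons were chosen with earlier results of these data known. Alternatives were lists of equal peak number or covered length, −log10 q-value minimums, 200 bp of overlap, joined peaks, other start definitions and leaving out each list. The functions were tested on simulated data, where the planted regions were recovered.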

Additional observations from a re-analysis of the deposited data

How the results depend on the processing

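The lists limit these counts, since a region is gained or lost by the presence of a peak and depth is not known from the files. Of the 12 results under the other settings, 57 values stayed within the limits set for no change and 19 moved. For counts, these limits compare the size of a count and not its members. With the same covered length the gained count of 404 stayed within them. Yet only 4 of the 37 gained regions at gene starts and 37 of the 275 distal ones were still gained. Under the other settings, which keep all 4 lists, no difference with a test changed sign. The Jaccard difference, which has no test, went from -0.0463 to 0.00455 with the same covered length, a move smaller than its spread between lists. With lists of the same number of peaks, 615 regions and 91 genes were gained and 315 genes lost, 22.3% of gained and 63.3% of lost regions lay at a gene start, and 40.3% of gained regions had a peak in both MSM lists. With the same covered length, 221 regions were lost and 96 genes gained, the start shares were 31.4% and 65.2%, both MSM lists had a peak in 46.3% of gained regions and neither in 51.1% of lost regions. With peaks up to 500 bp apart joined, 198 regions were gained and 299 lost, and both MSM lists had a peak in 63.6% of gained regions. At a −log10 q-value of at least 5, 11 genes were gained and 61.7% of lost regions lay at a gene start, and with every transcript start the start shares were 17.6% and 68.6%. Under equal lists fewer peaks enter by construction, and the cause of each move was not tested.

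Leaving out each list in turn gave 317 to 3233 gained and 698 to 6744 lost regions, and 17 to 1027 gained and 176 to 1593 lost genes, with the highest gained region count without F1 MB, the highest gained gene count without B6 replicate 1, and the highest lost counts without B6 replicate 2. Fewer conditions have to be met when a list is left out. Of gained regions 11.7% to 48.5%, and of lost regions 45.6% to 65.1%, lay at a gene start. Both MSM lists had a peak in 18.4% (without F1 MB) to 66.7% (without B6 replicate 1) of gained regions, and neither in 34.5% (without F1 BM) to 73.9% (without B6 replicate 2) of lost regions. The F1 minus B6 difference ranged from -6264 to 5085 peaks and from -6.17 to 3.58 Mb, with the sign reversed without B6 replicate 1 and without F1 MB. The difference in the share of peaks at a gene start ranged from -8.84 to 3.47 points, reversed without F1 BM and without B6 replicate 2, and the Jaccard difference from -0.110 to 0.0155. No paired analysis was possible because the F1 labels carry no replicate numbers that the B6 libraries share.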

Other observations

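Among the autosomes the share of gained regions ran from 0.673% of union regions on chromosome 11 to 1.83% on chromosome 1. Lost regions ran from 0.995% on chromosome 3 to 3.05% on chromosome 15. On the X chromosome 4 of 536 union regions were gained and 9 were lost. The Y chromosome had 9 union regions, of which 1 was gained, and its peaks numbered 9 in F1 BM, 1 in F1 MB, 8 and 4 in the MSM lists and 0 in both B6 lists, although no list had a peak at the start of Ddx3y, Eif2s3y, Kdm5d or Uty.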
